A study of Arabidopsis thaliana with 4 samples.

Results

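The early flavonoid and flavonol genes of Arabidopsis thaliana are described here in seedlings of the fip1-2 mutant and of a control line. The set was chosen by gene identifier, with earlier results of these data known. It holds 9 of the 27654 genes listed in the deposited table. It takes in 5 enzyme genes, namely CHS (AT5G13930), CHI (AT3G55120), F3H (AT3G51240), F3'H (AT5G07990) and FLS1 (AT5G08640). It also takes in 4 genes of transcription factors, namely MYB11 (AT3G62610), MYB12 (AT2G47460), MYB111 (AT5G49330) and HY5 (AT5G11260). The digit after AT in each identifier is the chromosome. All 9 were found in the table, and the reference annotation (RefSeq, TAIR10.1) carries the same names or lists them as synonyms.

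The libraries are from whole seedlings of the Columbia ecotype grown in Murashige and Skoog medium, with 2 libraries of fip1-2 and 2 of the control. The mutant fip1-2 is named for the FIP1 gene, whose product takes part in forming the 3′ ends of messenger RNAs. The labels say neither what kind of mutation it is nor whether it carries the control's reporter. The control line carries SKP2B::GUS, a GUS reporter under the SKP2B promoter. The growth protocol gives a growth time without its unit, so the age is not given here, and separate cultures are not stated for the replicates, so the p-values measure only the spread between these libraries, which may be technical. Values are normalised read counts. Fold changes come from limma on log2(value + 2), a scale that understates the change of weakly expressed genes, and they are given with their standard error (SE) and with p-values adjusted over all genes tested.

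Flavonoids are made from phenylalanine. Chalcone synthase (CHS) condenses an activated phenylpropanoid with malonyl units, chalcone isomerase (CHI) closes the ring, and flavanone 3-hydroxylase (F3H) makes dihydroflavonols, which flavonoid 3'-hydroxylase (F3'H) can hydroxylate further. Flavonol synthase (FLS1) turns dihydroflavonols into flavonols, while dihydroflavonol reductase (DFR) draws on the same substrate for anthocyanins and seed-coat tannins. In seedlings the MYB factors MYB11, MYB12 and MYB111 are known to activate the early genes with partly separate domains, MYB12 mainly in the root and MYB111 mainly in the cotyledons, and the light-regulated bZIP factor HY5 is known to act upstream of them.

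Gene-assigned reads numbered 20908391 and 20874114 in the fip1-2 libraries, and 21056064 and 21104606 in the control libraries. FIP1 (AT5G58040) stood at 5217 and 5145 in fip1-2, against 1796 and 1912 in control (log2 fold change 1.48 ± 0.05 SE, limma adjusted p = 2.98e-11). These values cover the whole gene, so they cannot check a mutation whose position is not given. Summed over 5 shoot markers the libraries held 399319 and 419320 in fip1-2, against 325871 and 322626 in control, and 3 of the 5 rose while CA1 fell. Summed over 6 root markers they held 12554 and 11889.7 in fip1-2, against 5548.5 and 5423 in control, and all 6 rose. Shoot and root transcripts were thus both present, as the label whole seedling says. Of all genes tested, 27% were called higher and 26.8% lower. Summed over 10 seed markers the libraries held 5221 and 1956 in fip1-2, against 254 and 64.1 in control. Of the 10, 8 were tested and called higher, but 5 of these had a control mean under the filter of 10 and were tested only through fip1-2, which fixed their direction. SESA4 was at 0 in every library, and CRB and SESA3 were at 0 in both control libraries. In bulk samples, a larger share of cells of one type and more RNA per cell cannot be told apart, and the part of these markers in the results below was not tested.

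CHS and F3H rose in fip1-2, MYB12 fell, and the other 5 genes tested did not pass. Thus 2 of 8 genes tested rose and 1 fell, while among all 19931 genes tested 53.8% were called, 27% higher and 26.8% lower. The share of these genes that was called is therefore no higher than that of genes at large. The median log2 fold change was 0.23 over the 8 and 0.00 over all genes, and the median over the 8 rested on single fip1-2 libraries, at -0.086 without replicate 1 and 0.41 without replicate 2. The 3 changes were large ones for this comparison. A log2 fold change as high as that of CHS was reached by 2.80% of all genes tested, one as high as that of F3H by 2.18%, and one as low as that of MYB12 by 2.33%. MYB11 had too few reads to be tested.

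**Figure D1:**
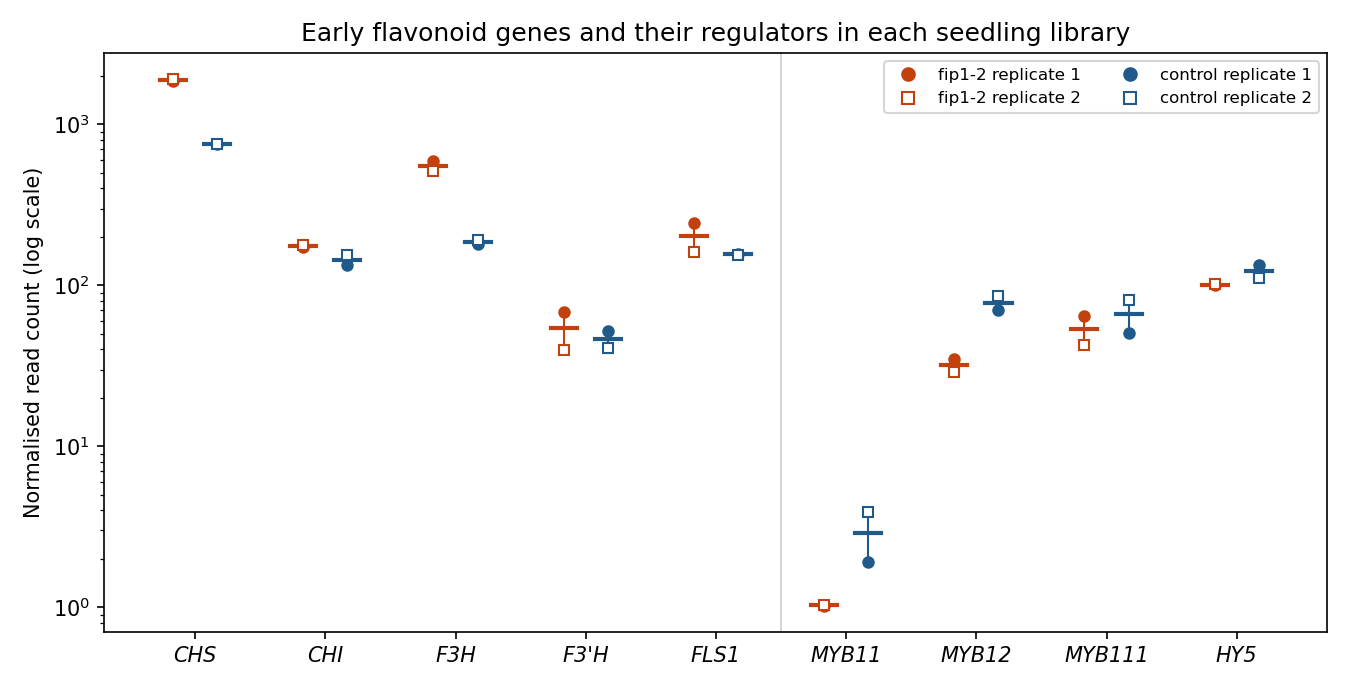
Normalised read count (log axis) of the 9 genes in each of the 4 libraries; orange points are fip1-2 and blue points control, filled circles replicate 1 and open squares replicate 2, and thick bars are group means. The 2 groups lie far apart for CHS, F3H and MYB12, while the libraries of F3'H and MYB111 overlap between groups.

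Of the enzyme genes, CHS stood highest. It had 1870.5 and 1907 in the fip1-2 libraries, against 755 and 753 in the control libraries, so each group's libraries lay close together and the groups far apart. The log2 fold change was 1.32 ± 0.06 SE (limma adjusted p = 1.98e-10), or 2.50-fold with a 95% interval from 2.30 to 2.72. CHS is the committed step into the flavonoid pathway.

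F3H rose as well, and whether its rise differed from that of CHS was not tested. It had 591 and 514 in fip1-2, against 182 and 192 in control, and both fip1-2 libraries lay above both control libraries. Its log2 fold change was 1.55 ± 0.10 SE (limma adjusted p = 8.61e-09), or 2.93-fold with a 95% interval from 2.54 to 3.37. The annotation places a long non-coding RNA, AT3G51238, on the opposite strand over 1588 bases of F3H. That RNA is not among the genes in the table, and without a strand-marking step in the protocol, reads of the pair cannot be told apart.

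CHI, which acts between these enzymes, did not pass. It had 172 and 177 in fip1-2, against 135 and 153 in control. Both fip1-2 libraries were the higher ones, by a margin about as wide as the gap between the control libraries. Its log2 fold change was 0.28 ± 0.12 SE (limma adjusted p = 0.0692), and the 95% interval, from 1.01-fold to 1.46-fold, lies below that of CHS.

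FLS1, the flavonol branch enzyme, had 244 and 161 in fip1-2, against 158 and 155 in control. Only replicate 1 of fip1-2 stood clearly above control, while replicate 2 lay next to it. Its log2 fold change was 0.34 ± 0.16 SE (limma adjusted p = 0.0866), with a 95% interval from 0.999-fold to 1.6-fold. Without fip1-2 replicate 1 the log2 fold change was 0.04 (adjusted p = 0.846), and without fip1-2 replicate 2 it was 0.63 and passed (adjusted p = 0.00407). In this and every other fit that leaves out 1 library, the remaining library of that group is assumed to vary like those of the other group, which alone give the residual spread. Over all alternatives of FLS1 the adjusted p ran from 0.00407 to 0.846. A gap between the fip1-2 libraries as wide as this was seen in 0.735% of the 3130 genes of like level.

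F3'H, which hydroxylates the B ring, had 68.6 and 39.4 in fip1-2, against 51.9 and 40.8 in control. The groups overlapped, and its log2 fold change was 0.17 ± 0.25 SE (limma adjusted p = 0.589, 95% interval from 0.773-fold to 1.64-fold). The direction depended on single libraries, at 0.56 without fip1-2 replicate 2 and -0.21 without fip1-2 replicate 1. With the trend of transcript length and GC content removed it was -0.029.

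Among the regulators, MYB12 fell. It had 34.8 and 29.1 in fip1-2, against 70.1 and 85.4 in control, so both fip1-2 libraries stood at less than the lower control library. The log2 fold change was -1.23 ± 0.21 SE (limma adjusted p = 0.000186), which leaves 0.426 of the control level with a 95% interval from 0.312 to 0.581. The counts behind it are small, with 34 and 28 reads in fip1-2 and 73 and 88 in control. MYB12 is an activator of CHS, F3H and FLS1 in textbook accounts, and here its transcript and those of CHS and F3H moved in opposite directions.

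MYB111 did not pass. It had 64.5 and 42.6 in fip1-2, against 50.9 and 81.5 in control, and the groups overlapped. Its log2 fold change of -0.29 ± 0.25 SE (limma adjusted p = 0.344) has a 95% interval from 0.567-fold to 1.18-fold. It was -0.62 and passed without control replicate 1 (adjusted p = 0.0335), against 0.04 without control replicate 2 (adjusted p = 0.919) and 0.00 without fip1-2 replicate 2. Over all alternatives the adjusted p of MYB111 ran from 0.0335 to 0.998, so no direction can be read from these libraries.

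MYB11, the third of these activators, was near the limit of the data, with 1 and 1 reads in fip1-2 and 2 and 4 in control. It fell under the filter of a mean of 10 and no fold is given. A gene on the opposite strand, AT3G62615, overlaps it by 495 bases in the annotation and is listed at 0 in all 4 libraries.

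HY5 had 100.4 and 102 in fip1-2, against 134 and 111 in control. Both fip1-2 libraries lay below both control libraries, but the control libraries differed from each other by more than the lower of them differed from fip1-2. Its log2 fold change was -0.26 ± 0.15 SE (limma adjusted p = 0.148, 95% interval from 0.670-fold to 1.04-fold), and over its alternatives it stayed negative, from -0.40 to -0.13, without passing.

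In all, 6 of the 8 genes tested had groups that did not overlap, 4 above control (CHS, CHI, F3H and FLS1) and 2 below (MYB12 and HY5). Of all genes tested 77.2% had groups that did not overlap, 38.2% above and 39% below, so the share is near that of genes at large. Leaving out fip1-2 replicate 1 left 2 early genes higher and 1 lower, against 21.5% and 21.4% of all genes. Without fip1-2 replicate 2 the early genes called were 3 higher and 1 lower, against 22.1% and 22.2% of all genes. Without control replicate 1 they were 3 higher and 2 lower, against 25.2% and 24%, and without control replicate 2 they were 3 higher and 1 lower, against 25.5% and 23.8%. With the replicate number as a block they were 3 higher and 1 lower, against 27.7% and 27.5%.

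**Figure D2:**
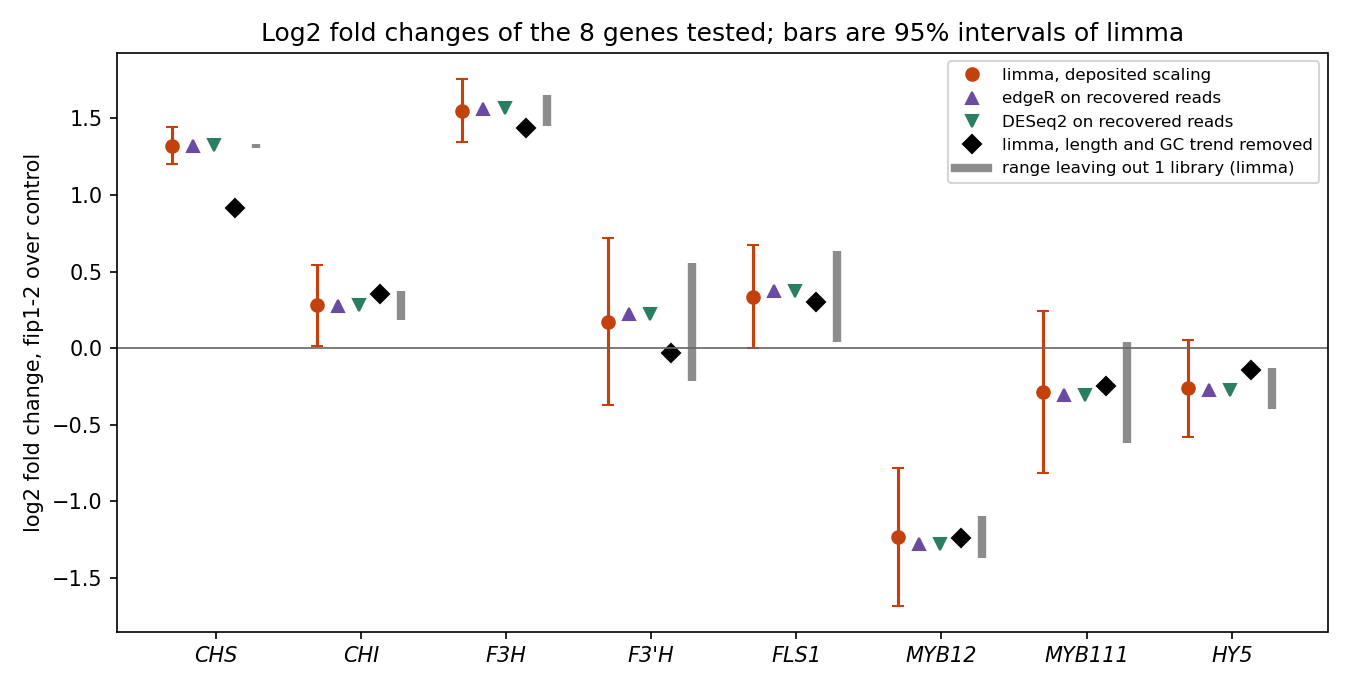
Log2 fold change, fip1-2 over control, of the 8 genes tested under 4 fits; vertical lines are 95% intervals of limma and grey bars the range over the fits that leave out 1 library each. CHS, F3H and MYB12 keep their sign throughout, and so do CHI, FLS1 and HY5, which were not called. CHS is 0.91 with the length and GC trend removed, and the ranges of F3'H and MYB111 cross 0.

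Across all genes the log2 fold change rose with transcript length and with GC content. The median was 0.26 over the 1982 genes of longest transcript and -0.25 over the 1988 of shortest. By GC content, it was 0.12 over the 1982 genes highest in GC and -0.17 over the 1982 lowest. CHS, at 1703 bases, lies among 1989 genes of middle length whose median was -0.04. With 47.9% GC it lies, like F3H and F3'H, in the group of genes highest in GC content. With both trends removed the log2 fold change was 0.91 for CHS, 1.43 for F3H and -1.24 for MYB12, all still past the threshold. In that fit CHI passed as well (0.36, limma adjusted p = 0.0258), so 3 of 8 genes rose and 1 fell, against 22.1% higher and 28.7% lower among all genes.

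Set per kilobase of transcript, the genes can be compared with each other. The labels disagree on the assay, since a poly(A) tag method is named in the design text and fragmented mRNA in the protocol, and dividing by length is suited only to fragmented mRNA. CHS stood at 1109 ± 15 per kilobase in fip1-2 and 443 ± 0.799 in control (SD, n = 2 each). F3H came next in fip1-2, at 366 ± 36.3 per kilobase, against 124 ± 4.97 in control. CHI stood at 157 ± 3.42 in fip1-2 and 129 ± 12 in control, and FLS1 at 134 ± 38.7 in fip1-2 and 103 ± 1.06 in control. In fip1-2 F3H was thus set apart from CHI and FLS1, which did not differ from each other beyond their spread, and in control F3H and CHI did not differ beyond theirs. HY5 followed at 87.1 ± 0.806 per kilobase in fip1-2 and 105 ± 14.0 in control, where it did not differ from FLS1 beyond that spread. F3'H, MYB111 and MYB12 lay lower, between 20.2 and 32.8 in fip1-2 and between 24.0 and 49.1 in control, and MYB11 lowest at 0.750 in fip1-2 and 2.11 in control.

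MYB111 stood above MYB12 in both fip1-2 libraries, while in control the pair did not differ beyond their spread. The ratio of MYB12 to MYB111 per kilobase was 0.556 and 0.704 in the fip1-2 libraries, against 1.42 and 1.08 in the control libraries. The 3 MYB genes together summed to 62.3 and 45.2 per kilobase in fip1-2, against 76.9 and 106.7 in control. The 5 enzyme genes summed to 1842 and 1746.5 per kilobase in fip1-2, against 816 and 831 in control, which makes the fip1-2 mean 2.18 times the control mean. An exact two-sided permutation test of 2 libraries against 2 cannot go below p = 0.33, and each sum and ratio given here reached that value.

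The proportions between the steps differed between the groups. CHS made up 59.6% and 64.1% of the enzyme sum in fip1-2, against 54.4% and 53.2% in control. The ratio of CHI to CHS was 0.141 and 0.143 in fip1-2, against 0.273 and 0.312 in control. The ratio of FLS1 to F3H was 0.411 and 0.312 in fip1-2, against 0.864 and 0.805 in control, and that of F3'H to F3H was 0.0908 and 0.0600 in fip1-2, against 0.223 and 0.166 in control. The ratio of F3H to CHS was nearer between the groups, at 0.357 and 0.304 in fip1-2 against 0.272 and 0.288 in control. None of these ratios is corrected for the trend of length and GC content. With it removed, the log2 fold changes of CHS and CHI lay nearer each other, at 0.91 and 0.36, against 1.32 and 0.28 before. Those of F3H and FLS1 moved less, to 1.43 and 0.30 from 1.55 and 0.34.

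**Figure D3:**
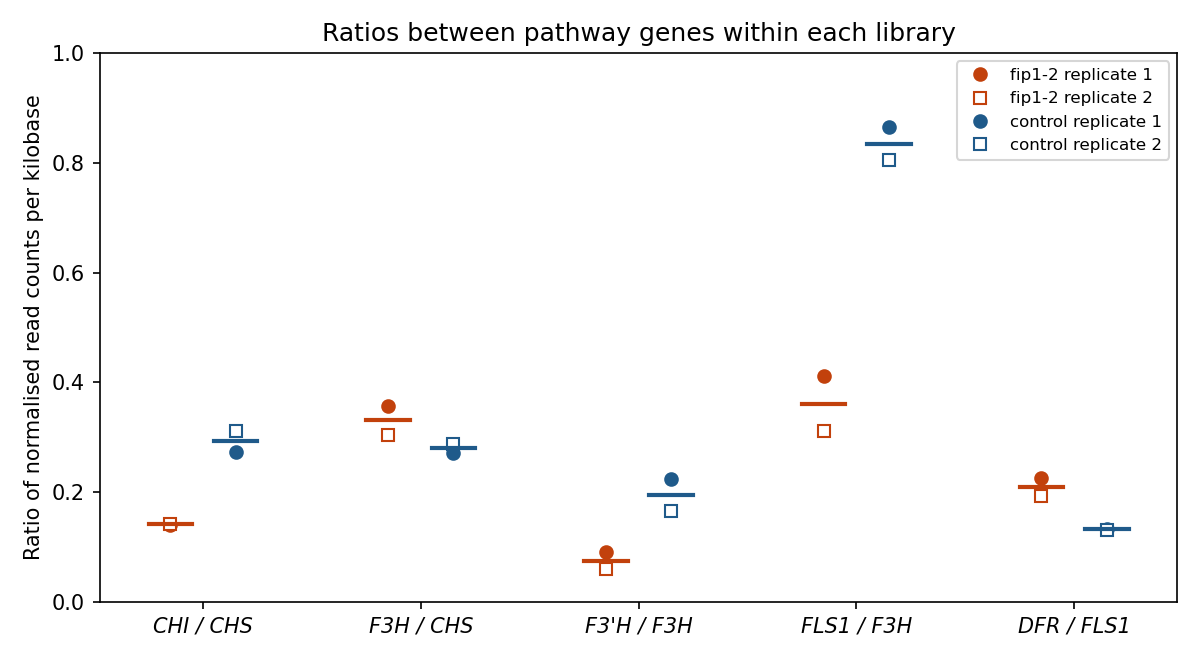
Ratio of normalised read counts per kilobase between pairs of pathway genes in each library; orange points are fip1-2 and blue points control, filled circles replicate 1 and open squares replicate 2, and bars are group means. The ratios of CHI to CHS, F3'H to F3H and FLS1 to F3H are lower in both fip1-2 libraries than in both control libraries.

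The profile of CHS over the 4 libraries was nearest to those of ATH1 (AT4G32980), AMP1 (AT3G54720) and AT1G18060, with distances of 0.0110, 0.0524 and 0.0557 on the centred log2 scale among 15179 genes with a mean of at least 100. With 4 libraries such a likeness says only that these genes share the size of their rise and the closeness of their replicates.

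Of the genes that feed the pathway most were called higher, by smaller amounts than CHS and F3H. Of 9 genes from phenylalanine ammonia-lyase (PAL) to 4-coumarate:CoA ligase (4CL), 7 rose, none fell, and PAL1 and PAL3 did not pass, against 27% higher and 26.8% lower among all genes, with a median log2 fold change of 0.34 against 0.00 over all genes tested. 4CL1 (AT1G51680) had 3373 and 3165 in fip1-2, against 1883 and 1999.6 in control (log2 fold change 0.75 ± 0.05 SE, limma adjusted p = 5.00e-08). The log2 fold changes of 4CL2, PAL2 and PAL4, which rose too, were 0.68, 0.49 and 0.34, and that of 4CL3, the ligase tied to flavonoids, was 0.73. Once the trend of length and GC content was removed, 4 of 9 rose, PAL3 fell with -0.52 and PAL4 stood at -0.023, against 22.1% higher and 28.7% lower among all genes in that fit.

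Close relatives of the early enzymes were called in both directions. CHIL (AT5G05270), a non-catalytic relative of CHI that promotes chalcone formation, rose, with 401 and 353 in fip1-2, against 208 and 209 in control (log2 fold change 0.85 ± 0.10 SE, limma adjusted p = 4.83e-06). FLS5 (AT5G63600), of the flavonol synthase family, fell, with 1469 and 1784 in fip1-2, against 2864 and 2871 in control (-0.82 ± 0.07 SE, limma adjusted p = 3.38e-07). FLS3 fell too, with a log2 fold change of -0.66. Thus 1 of 5 relatives tested rose and 2 fell, which for so few genes is near the 27% and 26.8% among all genes. Of the 7 listed, 2, namely AT5G66220 and FLS6, were under the filter. The ratio of FLS5 to FLS1 per kilobase was 5.16 and 9.5 in fip1-2, against 15.6 and 15.8 in control. FLS2, FLS3, FLS4 and FLS5 are family members with neighbouring identifiers, and similar stretches could have shared reads.

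Of 6 genes tested that decorate flavonols with sugars or methyl groups, 1 rose and 2 fell, again near the shares of all genes (27% and 26.8%). OMT1, a methyltransferase gene, rose with a log2 fold change of 0.38. RHM1, for a rhamnose synthase, and AT1G06000, annotated as a glycosyltransferase, fell with -0.27 and -0.37. AT1G06000 and RHM1 each overlap an annotated long non-coding RNA on the opposite strand that is not in the table. The same holds for KFB50 among the turnover genes and AT4G14090 of the anthocyanin and tannin branch. The flavonol glycosyltransferase genes UGT78D1 and UGT78D2 did not pass, at -0.12 and 0.04.

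Of 9 genes of the anthocyanin and tannin branch, 6 passed the filter, and of these 5 rose, with a median of 0.99. Of all genes tested 27% were called higher. TT19 and 5MAT had control means under the filter and were tested only through fip1-2, which fixed their direction, so the count and the median carry little weight. DFR (AT5G42800) had 55.3 and 31.1 in fip1-2, against 21.1 and 20.4 in control (log2 fold change 0.94 ± 0.29 SE, limma adjusted p = 0.0134). In the same branch LDOX, TT19, AT4G14090 and AHA10 rose with 1.30, 1.66, 1.04 and 0.91. TT19 overlaps by 108 bases a gene on the opposite strand, AT5G17230, that stood at 3461 and 3264 in fip1-2 and 2836 and 2879 in control, so its low values are uncertain. AT4G14090 likewise overlaps AT4G14100 by 230 bases. That gene stood at 172 and 184 in fip1-2 and 222 and 210 in control. Replicate 1 of fip1-2 was the higher fip1-2 library for all 6 branch genes tested and for all 8 seed markers tested. It was so for 8 of 9 genes from PAL to 4CL and 14 of 19 light signalling genes tested. The number was 1 of 6 for the anthocyanin regulators tested and 0 of 5 for the shoot markers. In the other lists the share ran from 40% to 66.7%. Of the 8 early genes tested it was the higher one for 5 (F3H, F3'H, FLS1, MYB12 and MYB111), against 49.9% of all genes tested. The median ratio of replicate 1 to replicate 2 in fip1-2 was 1.63 over the 6 branch genes and 2.91 over the seed markers. It was 1.17 over the 8 early genes tested and 1.00 over all genes tested. Without fip1-2 replicate 1, 2 of the 6 were called, DFR stood at 0.54 (adjusted p = 0.199) and LDOX at 0.84 (adjusted p = 0.118), while the counts for the early genes stayed at 2 rises and 1 fall.

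Of 6 regulators of that branch tested, 2 rose, 2 fell and 2 did not pass. For so few genes this is near the 27% called higher and 26.8% called lower among all genes. PAP1, a MYB activator of anthocyanin synthesis, rose, with 32.8 and 20.8 in fip1-2, against 7.69 and 8.74 in control (log2 fold change 1.46 ± 0.35 SE, limma adjusted p = 0.00274). Its control mean was under the filter, so it too was tested only through fip1-2. EGL3 rose with 0.58 and TTG1 and MYBL2 fell with -0.19 and -0.18, and each of these 3 lost its call when some single library was left out. In those fits the adjusted p was 0.352 for EGL3 and 0.0764 for MYBL2 at its highest, and 0.0794 for TTG1. The removal of the length and GC trend also ended the calls of MYBL2, at -0.051 (adjusted p = 0.434), and of EGL3, at 0.50 (adjusted p = 0.063). Of the 11 listed, 5 were under the filter.

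Repressors and factors of enzyme turnover mostly fell. All 8 were tested, and 6 fell, 1 rose and 1 missed the threshold, with a median log2 fold change of -0.41. Among all genes 26.8% fell and 27% rose. The gene that missed the threshold, AT1G23390, is listed as the F-box gene for turnover of CHS. It had 4965 and 4882 in fip1-2, against 4667 and 4529 in control (log2 fold change 0.10 ± 0.05 SE, limma adjusted p = 0.0989). KFB50, KFB20 and KFB01, F-box genes whose proteins mark PAL enzymes for breakdown, fell with log2 fold changes of -0.53, -0.29 and -0.67. KFB01 had 387 and 568 in fip1-2, against 724 and 774 in control, and lost its call with robust variance estimation (adjusted p = 0.113). MYB32 (AT4G34990) had 38.9 and 35.3 in fip1-2, against 76.9 and 75.7 in control (log2 fold change -1.0 ± 0.19 SE, limma adjusted p = 0.000534). Of its relatives MYB4, a repressor of C4H, and MYB7 fell with -0.39 and -0.42, and MYB3 rose with 0.38.

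Light signalling genes around HY5 mostly did not pass. Among the 19 tested there were 3 rises and 2 falls, and 14 missed the threshold, against 27% higher and 26.8% lower among all genes, with a median of 0.00. HYH, the homolog of HY5, had 45.1 and 41.5 in fip1-2, against 67.3 and 47.6 in control (-0.37 ± 0.22 SE, limma adjusted p = 0.167), and COP1, the ubiquitin ligase that targets HY5, stood at -0.14. BBX25 (AT2G31380), a B-box factor that counteracts HY5, rose, with 234 and 229 in fip1-2, against 86.5 and 78.6 in control (1.47 ± 0.13 SE, limma adjusted p = 2.97e-07). BBX25 overlaps by 48 bases a gene on the opposite strand, AT2G31390. The overlapping gene stood at 1825 and 1830 in fip1-2 and 1449 and 1450 in control. SPA1, a partner of COP1, and DET1 rose with 0.62 and 0.46, and RUP1, a repressor of the UV-B receptor, and BBX20 fell with -0.86 and -0.88. Removing the trend of length and GC content gave 4 rises and 7 falls, against 22.1% higher and 28.7% lower among all genes in that fit. Of 5 genes tested that light or UV-B induces, 3 rose and 1 fell in the main fit, against 27% higher and 26.8% lower among all genes. SIG5, ELIP1 and UVR2 rose with 1.28, 0.85 and 0.43, and UVR3 fell with -0.89. The gene that was not called had a control mean under the filter and was tested only through fip1-2. Of the 6 listed, 1 was under the filter. UVR2 overlaps by 127 bases a gene on the opposite strand, AT1G12360. That gene stood at 1947 and 1845 in fip1-2 and 1685 and 1771 in control. UVR2 lost its call in 6 of the 15 alternatives, with adjusted p up to 0.272.

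**Figure D4:**
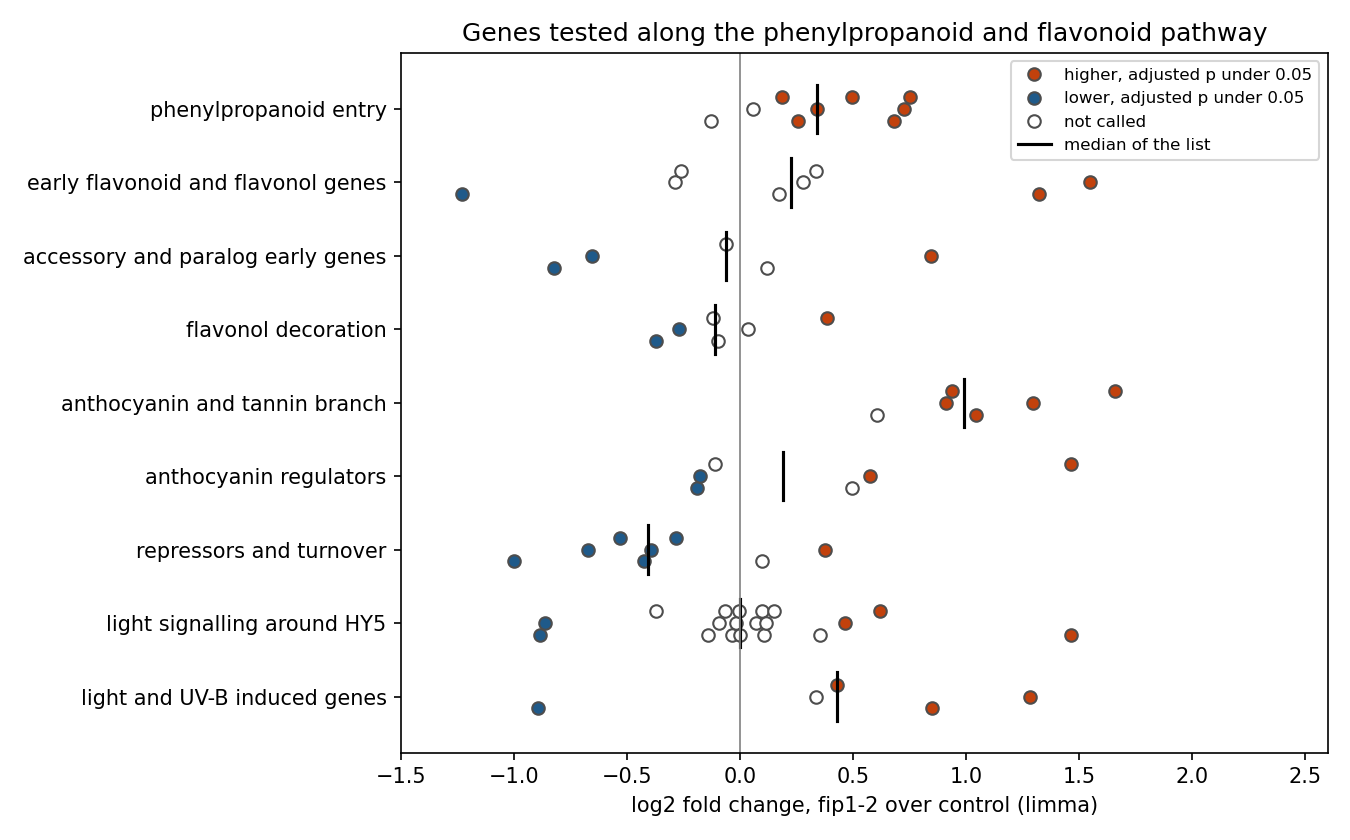
Log2 fold change, fip1-2 over control, of every gene tested in each list; orange points are genes called higher, blue points genes called lower and open points genes not called, and black lines are list medians. The early flavonoid genes spread from -1.23 (MYB12) to 1.55 (F3H). In the anthocyanin and tannin branch, TT19 and 5MAT passed the filter only through fip1-2.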

How the data were processed

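CASAVA 1.4, FastQC, HISAT2, HTSeq and edgeR are named in the submitters' processing notes, without role or order. For the genome build, annotation and counting settings the sources used here give nothing. Per the file headers, each deposited value is a signal per gene from htseq-count. The values are not whole, but every one (100%) was a whole multiple, within 1e-06, of what 1 read is worth in its column, so whole reads could be recovered.

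The main test used limma 3.58.1 in R 4.3.3 on log2(value + 2) of genes with a mean of at least 10 (variance trend, two-sided, Benjamini-Hochberg over 19931 genes, threshold 0.05), with genotype as the only term. The count tests of edgeR 4.0.16 and DESeq2 1.42.0 on recovered reads were among 15 alternatives. Calls were tested on simulated data with known changes in a small part of the genes, whereas 53.8% of genes were called here. That test therefore cannot show how the calls behave when so many genes change. Transcript lengths and GC come from the longest transcript of each gene in RefSeq TAIR10.1, which lists 27444 of the 27654 identifiers. No coordinates or sequences are printed. The members and lists were chosen with earlier results of these data known. From each other pathway list, the text names every called gene, or the 4 with the smallest p where more were called, and the 3 genes nearest to CHS. The shoot, root and seed marker lists are given by sums and counts. Others were named after their values were seen. They are 4CL3, PAL1, PAL3, UGT78D1, UGT78D2, HYH, COP1, BBX20, MYB3, MYB4, MYB7, AHA10, 5MAT, FLS2, FLS4, FLS6, AT5G66220, AT1G23390, CA1, CRB, SESA3 and SESA4.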

Additional observations from a re-analysis of the deposited data

How the results depend on the processing

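Over the 15 alternatives, CHS and F3H rose and MYB12 fell past the threshold in each. Early genes called higher numbered 2 in limma and 2 or 3 in the alternatives. CHI was the third with the length and GC trend removed and without control replicate 2, and FLS1 with the replicate block, without control replicate 1 and without fip1-2 replicate 2. Early genes called lower numbered 1 in limma and ran from 1 to 2 when single libraries were left out, MYB111 being the second. The median log2 fold change of the early genes, 0.23 in limma, ran from -0.086 to 0.41 when single libraries were left out. Of all genes, 19% to 28.5% were called higher and 17.3% to 28.7% lower over the alternatives. DESeq2 called 3443 genes lower, against 5342 in limma. The replicate block gave 3 early genes higher, 1 lower and 11004 genes called in all, against 10726 without it. The deviations of same-numbered libraries had a correlation of -0.01 and the labels tie no number to a batch, so this is no paired result. With the trend removed, the log2 fold change turned to -0.029 for F3'H, -0.023 for PAL4, -0.12 for PAL1 and -0.18 for UGT78D2. With single libraries left out it ran from -0.21 to 0.56 for F3'H, from -0.62 to 0.041 for MYB111 and from -0.10 to 0.18 for UGT78D2. The cause was not tested. In the anthocyanin and tannin branch 5 genes were called higher in limma, 3 with DESeq2, 2 without fip1-2 replicate 1 and 1 with a filter of 50, which keeps fewer genes. Of the anthocyanin regulators 2 rose and 2 fell in limma, against 1 and 0 with DESeq2 and without fip1-2 replicate 1. Of the light and UV-B induced genes 3 rose in limma and 1 with DESeq2. Of all genes DESeq2 called 19% higher and 17.3% lower, against 27% and 26.8% in limma, so it called fewer genes at large too. Of the early genes, MYB11, MYB12, MYB111 and F3'H had the fewest reads. A gap between the fip1-2 libraries as wide as that of F3'H was seen in 2.09% of genes of like level. For MYB111 it was 4.84% and for MYB12 40.8%. What part read numbers had in these gaps was not tested.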
